A study of Caenorhabditis elegans with 2 samples.

Results

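The small nuclear RNA (snRNA) genes of *Caenorhabditis elegans* were described at the binding sites of SNPC-4, the worm relative of the largest subunit of SNAPc. They were the genes that the Ensembl annotation of the WBcel235 assembly gives the biotype snRNA, without the spliced leader (sls) and SmY (smy) RNA genes. There were 89 such genes among 46926 annotated genes. The data are chromatin immunoprecipitation sequencing (ChIP-seq) peak lists in the ce11 build from 2 biological replicates, which form the only group. Both replicates were whole hermaphrodite young adults of the transgenic line YL487, harvested 60 h after first-stage larvae were synchronised by starvation. The line stably carries snpc-4 fused at its C-terminal end to GFP and FLAG. An anti-GFP antibody was used according to the description, although the antibody entry of the labels names snpc-4. Signal from whole animals is an average over all tissues, so strong binding in few cells and weak binding in many cannot be told apart.

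Spliceosomal snRNAs are the RNA cores of the particles that remove introns. U1 pairs with the 5′ splice site, U2 with the branch point, U5 holds the exons, and U6, brought in by U4, forms the catalytic centre. In animals SNAPc binds a proximal sequence element in the promoters of these genes. RNA polymerase II transcribes the genes for U1, U2, U4 and U5, and RNA polymerase III those for U6. In vertebrates a TATA box beside the proximal element marks the polymerase III promoters.

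The annotation gave no snRNA type for any of the 89 genes. They were therefore grouped by letters known for each snRNA, searched in the annotated gene: ACTTACCT for U1 (12 genes), GTAGTATC for U2 (19), AGCTTTGC for U4 (5), CCTTTTAC for U5 (11) and ACAGAGA for U6 (22). No gene held the letters of more than 1 type, and 20 genes held none, so 69 of the 89 held the letters of a spliceosomal type. A match this short does not by itself establish the type of a gene. This grouping was made after the annotation had been seen. The short run ATTTTTG, which contains the uridine run of an Sm protein site, was in 45 of the 47 U1, U2, U4 and U5 genes and in 0 of the 22 U6 genes. TTTT, the kind of T run at which polymerase III stops, lay in the last 10 bases of 20 of 22 U6 genes and of 0 of the 47 others, against 9.85% of other non-coding genes (piRNA genes left out here and below).

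The genes and promoters that carry the description are shown here, read from the RefSeq sequence of WBcel235, 5′ to 3′ on the gene strand. The U1 gene sup-6 (II:12944803-12944967, minus strand) is given whole, with the type letters in capitals.
sup-6 gene: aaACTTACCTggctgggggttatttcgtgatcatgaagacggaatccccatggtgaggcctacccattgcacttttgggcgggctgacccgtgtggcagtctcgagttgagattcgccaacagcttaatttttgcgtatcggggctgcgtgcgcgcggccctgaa

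The promoters run from 80 bp before the annotated 5′ end through the first 10 bases of the gene. Capitals mark TGTC starting 60 to 40 bp upstream with the 2 bases after it, and TATA or overlapping copies of it starting 35 to 15 bp upstream. The first 3 are U6 promoters: W05B2.8 with the highest signal of all 89 genes, K09B11.16 of a cluster with low signal, and F32D1.12 with no pooled candidate within 300 bp.
W05B2.8 promoter: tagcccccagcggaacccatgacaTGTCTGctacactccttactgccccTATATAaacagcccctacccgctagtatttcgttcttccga
K09B11.16 promoter: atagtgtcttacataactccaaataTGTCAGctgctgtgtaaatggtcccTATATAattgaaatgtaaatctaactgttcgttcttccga
F32D1.12 promoter: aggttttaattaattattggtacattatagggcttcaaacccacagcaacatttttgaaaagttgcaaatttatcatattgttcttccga

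The next 6 are those of the U1, U2, U4 and U5 genes of highest signal and 2 near-identical U1 promoters, of which T27E4.12 had an IDR summit and T27E4.10 had no pooled candidate within 300 bp.
sup-6 promoter: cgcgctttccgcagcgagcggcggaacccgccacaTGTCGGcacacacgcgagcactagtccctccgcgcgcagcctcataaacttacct
Y57G11C.35 promoter (U2): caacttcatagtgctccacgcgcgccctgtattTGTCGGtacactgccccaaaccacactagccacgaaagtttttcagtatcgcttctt
C52E4.8 promoter (U4): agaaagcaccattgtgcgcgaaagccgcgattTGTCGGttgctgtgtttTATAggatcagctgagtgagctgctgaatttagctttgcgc
F38E11.10 promoter (U5): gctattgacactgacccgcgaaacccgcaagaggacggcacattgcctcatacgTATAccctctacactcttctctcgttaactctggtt
T27E4.12 promoter (U1): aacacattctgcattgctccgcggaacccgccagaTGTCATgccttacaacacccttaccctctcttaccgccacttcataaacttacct
T27E4.10 promoter (U1): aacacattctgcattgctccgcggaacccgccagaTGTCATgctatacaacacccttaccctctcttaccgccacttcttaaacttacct

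The last pair belongs to genes without the letters of any type, M163.13 with an IDR summit of high signal and T14B4.10 with no pooled candidate within 300 bp.
M163.13 promoter: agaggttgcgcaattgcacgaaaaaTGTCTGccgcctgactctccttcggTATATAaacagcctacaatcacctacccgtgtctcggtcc
T14B4.10 promoter: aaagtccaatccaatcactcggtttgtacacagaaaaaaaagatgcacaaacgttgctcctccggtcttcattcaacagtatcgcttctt

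SNPC-4 lay at most snRNA genes. The authors' list of 4675 pooled peaks past the threshold on the irreproducible discovery rate (IDR) put a summit no more than 300 bp from the start of 65 of the 89 genes (73.0%, exact 95% interval 62.6 to 81.9, counting error only). The same held for 11.6% of all annotated genes and 6.36% of protein-coding genes. A further 6 snRNA genes had only a weaker region from the 30000 pooled candidates, which makes 71 with any candidate, and 18 had none. Of all annotated genes, 38.7% had a pooled candidate that close. In the replicates' own lists, cut at their 4675 strongest regions, 62 snRNA genes had a summit in replicate 1 and 64 in replicate 2, against 11.0% and 11.8% of all annotated genes. All 62 genes of replicate 1 were among the 64 of replicate 2.

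These sites were high in the list. The signal, the authors' measure of peak strength with no stated scale, had a median of 1505 (97.3 to 22264) at the 65 genes, against 165 over all 4675 IDR peaks. The median rank was 233, with 21 genes in the top 100 and 46 in the top 500. The replicates ordered the 65 genes nearly alike (Spearman's rho 0.993 between replicate signals, a description across genes that share both libraries). The weakest member inside the IDR list was the U2 gene W07G1.24, with a signal of 97.3 and ranks of 4713 and 4892 in the replicates. The strongest member outside it was the U1 gene T27E4.11, with 38.3. At the 300 bp limit, the farthest IDR summit was 226 bp from K09B11.15 and the farthest candidate 286 bp from C35D6.7. The nearest pooled candidate to C35D6.6, at 404 bp, was the closest one outside.

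**Figure D1:**
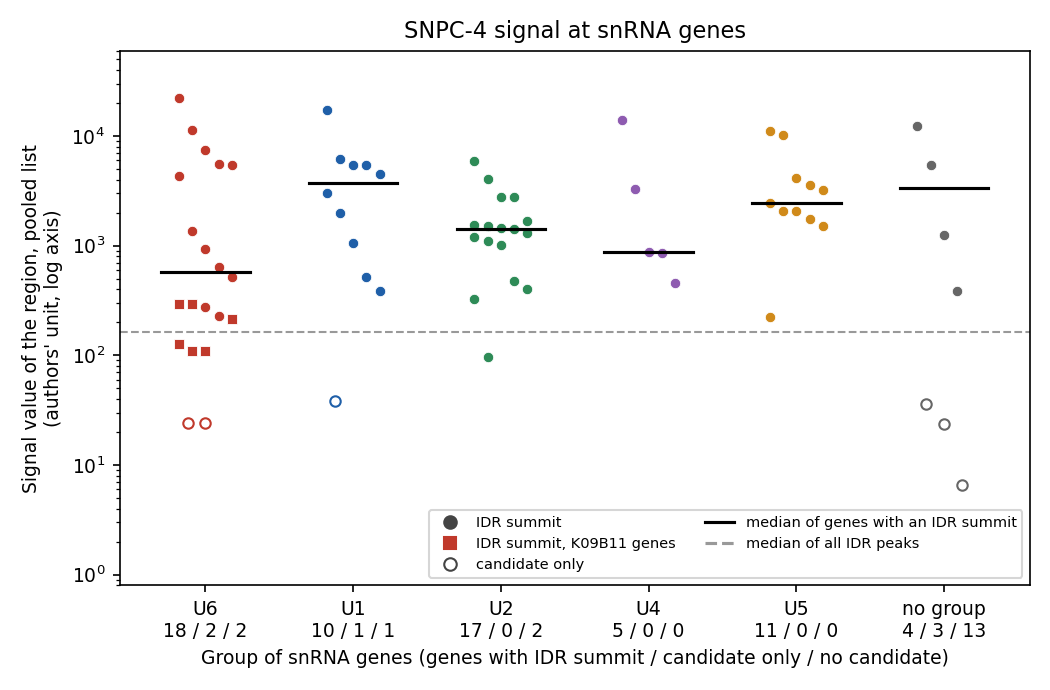
Pooled signal of the nearest region (authors' unit, log axis) for snRNA genes by group, with filled marks for IDR summits, open marks for candidates only and a bar at the median of genes with an IDR summit. The medians were 574 for U6, 3771 for U1, 1431 for U2, 869 for U4 and 2466 for U5, above the dashed line at 165 for all IDR peaks, while the 6 K09B11 genes (squares) sat between 109 and 293.

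The summit marked the promoter more than the transcribed part. At the 65 genes the pooled summit lay a median of 34 bp upstream of the 5′ end (37 bp in replicate 1, 35 bp in replicate 2). It was upstream at 61 of 65 genes, and 15 to 65 bp upstream at 56. The summits of the replicates were a median of 8 bp apart, within 20 bp at 53 genes and over 100 bp at 1. The snRNA gene was itself the nearest annotated 5′ end at 61 genes. At 3 others the nearest was another snRNA gene and at sup-6 a non-coding RNA gene, F58G1.11, that starts 2 bp from the summit. By median, the summit was 35 bp upstream at U1, 33 bp at U2, 28 bp at U4, 45 bp at U5 and 32 bp at U6 genes. The 4 summits inside genes were at K09B11.14 and at the U2 genes F56H6.14, R05D7.6 and F56H6.16, the U2 genes being named after their values were seen.

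The U6 genes held both the strongest site and most of the weak ones. Of 22 U6 genes, 18 had an IDR summit (81.8%, exact interval 59.7 to 94.8), against 43 of the 47 U1, U2, U4 and U5 genes (91.5%, 79.6 to 97.6). The intervals give counting error only and take genes as independent, although the 18 U6 genes had 17 distinct summits. Over the genes with a summit, the median signal was 574 at U6 (109 to 22264) and 1769 at the others (97.3 to 17455), and the median rank 600 against 193. In replicate 1 the median ranks were 732 at U6 and 198 at the others, and in replicate 2 they were 562 and 195. This order rests on 6 identical U6 genes of 1 cluster, named K09B11.11 to K09B11.16. Without them, a choice made after their low values were seen, the median signal of U6 was 2825 and the median rank 166. By these medians U6 was then the higher of the pair. By the share with an IDR summit it was still the lower, at 12 of 16 genes (75.0%).

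W05B2.8 (III:10989679-10989780, plus strand), inside dhc-4 on the same strand, had the highest signal of all members. Its signal was 10299 in replicate 1 (rank 10) and 12065 in replicate 2 (rank 6), and 22264 in the pooled list (rank 8), with the pooled summit 28 bp upstream, at the TATA letters shown above. F54D8.7 on chromosome III followed with 5385 (rank 34) and 5958 (rank 31) in replicates 1 and 2. Y9C9A.111 on chromosome IV had 3427 (rank 47) and 4034 (rank 44). The rank of each of these 3 moved by at most 4 places between replicates.

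Below them, R07E5.16 and C28A5.7, near each other on chromosome III, had pooled signals of 5532 and 5406, and K09C6.12 on chromosome V had 4286. Middle values were found at T08B6.62 (1363), Y17G9A.85 (935), F54C8.9 (634) and F54C8.10 (515). F54C8.8 (276) and Y17G9A.90 (230) were the lowest outside the K09B11 genes. F54C8.8, F54C8.9 and F54C8.10 lie together on chromosome III inside the span of F54C8.6. In replicate 1 the ranks of these 9 genes were between 63 and 2205, and in replicate 2 between 53 and 1570.

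The K09B11 genes are 6 identical copies within 8062 bp (IV:13435785-13443846), all inside the span of mam-3, and their sequence also occurs outside the cluster. Their pooled signals were 127 at K09B11.11, 109 at K09B11.12, 215 at K09B11.13 and 110 at K09B11.14. K09B11.15 and K09B11.16 point away from each other and shared 1 summit of 293, which lay 226 bp from the start of K09B11.15 and 23 bp from that of K09B11.16. Their ranks ran low in both libraries, from 1547 to 5877 in replicate 1 and from 1198 to 3990 in replicate 2. A median of 41.8% of the 50-base words around their 5′ ends occurred once in the genome, against 71.9% at the other U6 genes. Of those others, F54C8.9 (29.9%, signal 634) and F54C8.8 (33.9%, signal 276) had lower shares. Among U2 genes, R05D7.6 at 23.5% had a signal of 1500, while F15H9.5 and F15H9.6 at 0% had no candidate. The sources used here do not give how reads from repeated sequence were placed. The part of that in the low K09B11 values was not tested.

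**Figure D2:**
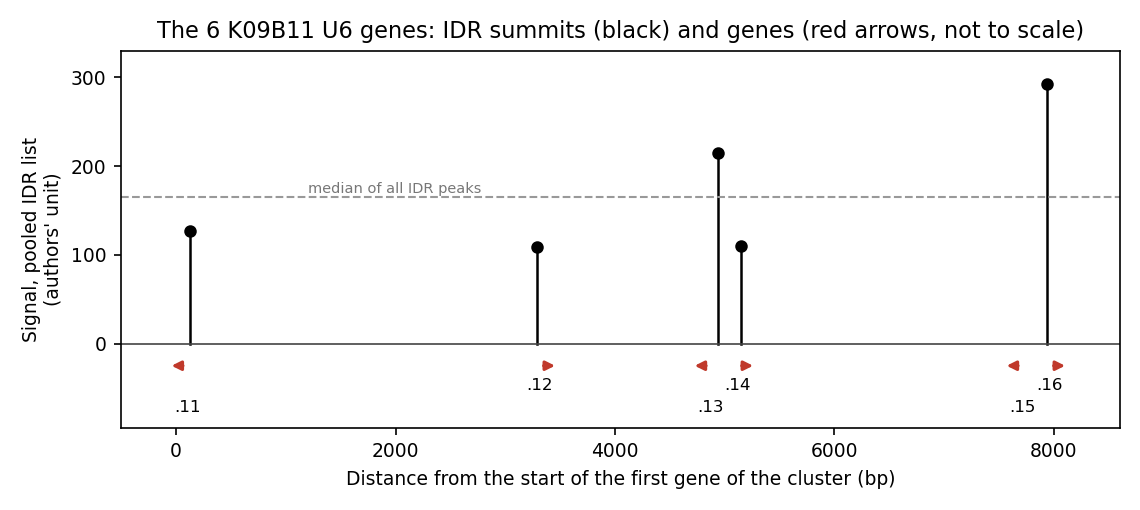
Pooled IDR summits (black, height is the signal in the authors' unit) and the 6 K09B11 U6 genes (red arrows give the direction of transcription) by distance in bp from the start of the first gene. Of the 5 summits, 2 with signals of 215 and 293 lie above the median of all IDR peaks at 165 (dashed), and 3 between 109 and 127 lie below it.

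The other 4 U6 genes had no IDR summit. T20D3.12 and T20D3.13, whose annotated 5′ ends overlap head to head on chromosome IV, shared 1 pooled candidate of 24.3 (rank 15531). B0205.15 and F32D1.12 had no pooled candidate within 300 bp, the nearest being 4410 and 7468 bp away, and only replicate 2 held a region at B0205.15 (5.67, rank 27247). The share of 50-base words found once was 73.7% at both T20D3 genes, 100% at B0205.15 and 79.3% at F32D1.12.

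The replicates differed in 1 respect at the U6 genes. Of 18 U6 genes with an IDR summit, 17 stood higher in the ranking of replicate 2 than in that of replicate 1, against 20 of 43 U1, U2, U4 and U5 genes. Over all other annotated genes with an IDR summit and a region in both replicates the share was 53.0%, and over nuclear tRNA genes, which polymerase III also transcribes, it was 53.0% too. The exception was F54C8.8, with ranks of 1349 in replicate 1 and 1570 in replicate 2. All 6 K09B11 genes (5 distinct summits) and 11 of the 12 other U6 genes followed the pattern, which was noticed in the ranks. It was not tested, since genes of 1 library are not replicates.

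**Figure D3:**
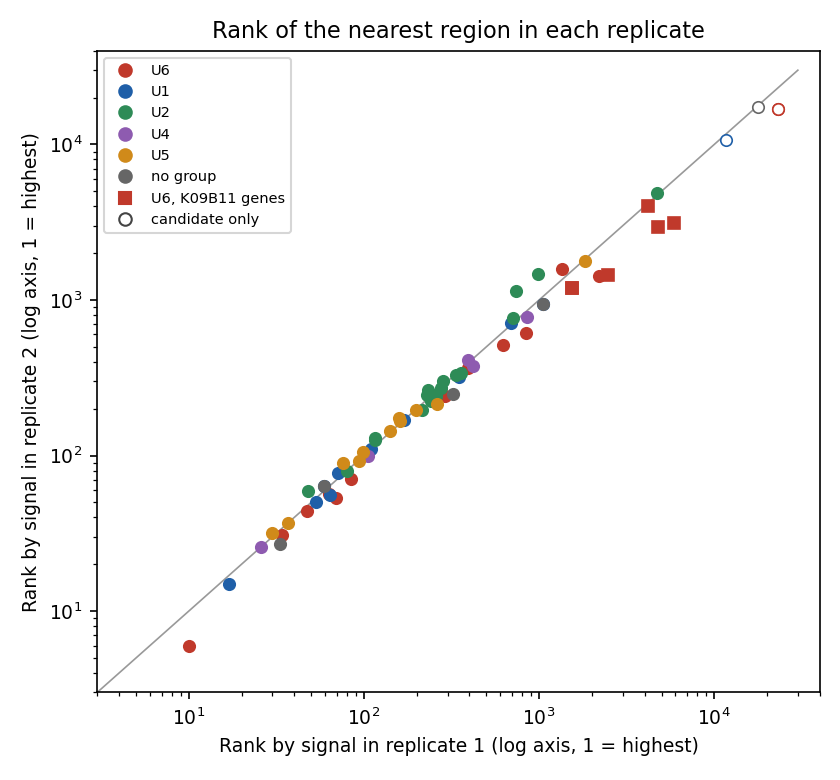
Rank by signal of the nearest region in replicate 1 (x) and replicate 2 (y) for snRNA genes with a region in both, on log axes where 1 is the highest, with the diagonal in grey. Points follow the diagonal (rho 0.993 over the 65 genes with an IDR summit), and 17 of the 18 U6 genes with an IDR summit (filled) lie below it, so higher in replicate 2.

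U1 genes had the highest median of the 5 types. Of 12, 10 had an IDR summit, with a median signal of 3771 (385 to 17455). The gene sup-6, where mutation suppresses splice site defects, led with 8263 in replicate 1 (rank 17), 9341 in replicate 2 (rank 15) and 17455 pooled. The gene lies inside F58G1.7 on the same strand, and its summit was 19 bp upstream in both replicates. The second suppressor gene, sup-39 (II:6968394-6968558, minus strand), had 2858 (rank 59) and 2607 (rank 64), and 5419 pooled, with the summit 41 bp upstream. Their 165-base genes were 97.0% identical, at 5 edits, and both were in the top 100 of each list.

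T08G5.11 (6176) and F08H9.11 (5490), both on chromosome V, came next among U1 genes. C27H5.11 (518) and T27E4.12 (385) had the lowest IDR signals, with replicate ranks of 694 and 711, and of 1059 and 941. The remaining pair of U1 genes lay beside T27E4.12. T27E4.11 had a candidate of 38.3 with the summit 198 bp downstream of its 5′ end, beyond the end of the 164-base gene, and T27E4.10 had no pooled candidate. No 50-base word around the 5′ ends of either occurs once in the genome, while 76.1% of those at T27E4.12 do.

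Of the 19 U2 genes, 17 had an IDR summit, and their median signal was 1431 (97.3 to 5980). Y57G11C.35 (IV:14764848-14765034, minus strand) led with 3272 and 2859 in replicates 1 and 2 (ranks 48 and 59), ahead of F08G2.10 (pooled 4080) and F11A5.14 (2809). The lowest were C05G6.4 (328) and the shortened copy W07G1.24, at 149 bases where the median U2 gene has 187. The 2 without a summit, F15H9.5 and F15H9.6, also had no candidate and held no 50-base word found once, although both carry TGTCGG 47 bp upstream as other U2 genes do.

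All 5 U4 and all 11 U5 genes had an IDR summit. C52E4.8 (V:11980118-11980261) led the U4 genes with 6716 and 7382 (rank 26 in both replicates), followed by F10D2.13 (pooled 3298), K03B8.10 (869), T11F9.15 (861) and T11F9.16 (453). F38E11.10 (IV:9444642-9444763) led the U5 genes with 5542 and 5686 (ranks 30 and 32). It was followed by F32B5.9 (10249 pooled) and F42C5.12 (4138). C53D6.12 (1505) and C53B4.9 (223) were lowest, so 10 of the 11 U5 genes were in the top 500. Both type leaders, C52E4.8 and F38E11.10, were also the only U4 and U5 genes with TATA 35 to 15 bp upstream, which is 1 gene in each type.

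Of the 20 genes without letters of any type, 4 had an IDR summit, and 2 of those shared it with a U1 gene. These were mir-1831, a 22-base entry inside sup-39, and T27E4.22, which overlaps T27E4.12 on the same strand. F56A12.5 on chromosome V had 1245 with the summit 126 bp upstream. M163.13 (X:14476867-14476946, plus strand), 80 bases long, had 5448 in replicate 1 (rank 33) and 7028 in replicate 2 (rank 27). Its promoter carries TGTC 55 bp and TATA 30 bp upstream, as 5 of the 6 K09B11 promoters do, and its gene shares no run over 10 bases with any typed gene.

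The other 16 held most of the empty genes. ZK1251.14 (35.7), C53D6.16 (23.6) and C35D6.7 (6.55) had a weak candidate. No pooled candidate was within 300 bp of B0213.21, B0213.22, B0213.23, B0213.24, C35D6.6, C41G6.17, F20D1.21, F35B3.10, F35C11.9, F36A4.23, T10H4.16, T10H4.17 and T14B4.10. Of these, C35D6.6 had a region in replicate 1 alone (4.92, rank 29507). The 4 B0213 and 2 T10H4 genes lie inside cytochrome P450 genes of the cyp-34A family on the opposite strand, at least 28785 bp from any pooled candidate. F36A4.23 shares a run of 65 bases with a U6 gene, T14B4.10 one of 48 with a U2 gene and C53D6.16 one of 39 with a U5 gene, but they lack the type letters. Over all 18 genes with no candidate the median share of 50-base words found once was 100%, against 68.9% at the 65 with an IDR summit.

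**Figure D4:**
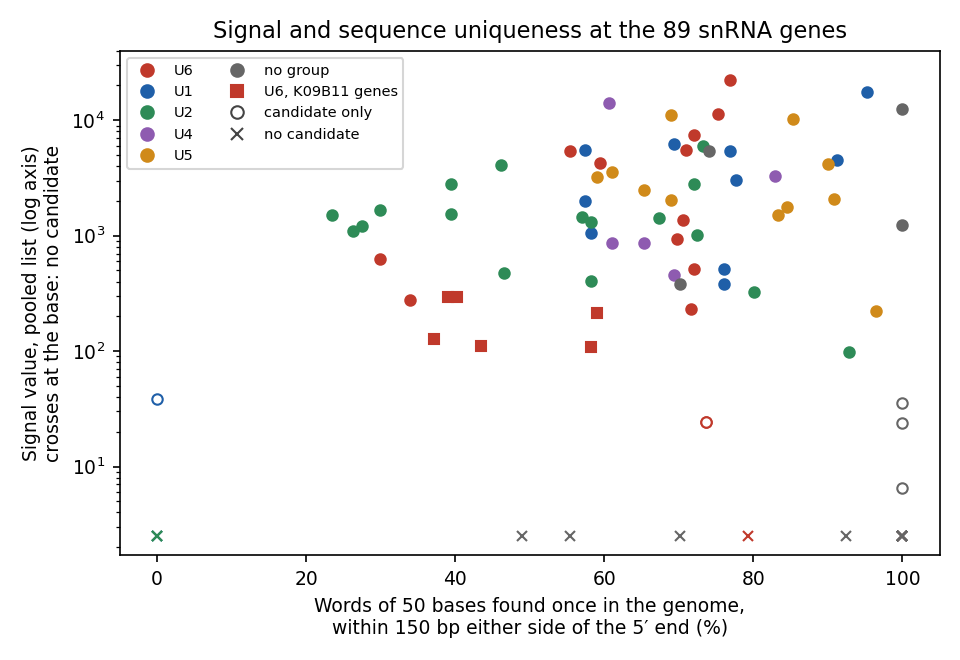
Pooled signal (authors' unit, log axis) of the 89 snRNA genes against the percent of 50-base words within 150 bp of the 5′ end that occur once in the genome, with open marks for candidates only and crosses at the base for no candidate, many of which overlap at 100%. Genes with an IDR summit spread from 23.5% to 100%, and genes without one are found at both ends, with 0% at T27E4.10, T27E4.11, F15H9.5 and F15H9.6.

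The letters at the summits differed by type in place and kind. TGTC starting 60 to 40 bp upstream was in 65 of the 89 promoters (73.0%), against 6.15% of other nuclear genes. It started 45 bp upstream in 10 of 12 U1 genes, 47 bp in all 19 U2 genes, 48 bp in 4 of 5 U4 genes and 47 bp in 4 of 11 U5 genes. U6 promoters had it farther out, at 55 or 56 bp in 15 of 22, a place where none of the 47 others had it. The longer TGTCGG, on either strand within 100 bp, was in 30 of 89 promoters (33.7%), against 1.92% of other nuclear genes, and its reversed letters GGCTGT were in 6 (6.74%), against 1.29%. TGTCGG was in 1 of the 22 U6 promoters and 28 of the 47 others, 15 of them U2. Spliced leader and SmY RNA genes had TGTCGG in 12 of 40 promoters, a share near that of the snRNA genes. They had GGCTGT in 10 of 40, a larger share than at the snRNA genes. TGTCGG contains TGTC, so these counts overlap. The letters were searched after earlier results of these data had shown them.

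AACC starting 9 to 12 bp before TGTC was in 30 of 89 promoters (33.7%), against 0.184% of other nuclear genes. Spliced leader and SmY RNA genes had this pair in 9 of 40 promoters (22.5%). The 30 include mir-1831 and T27E4.22, whose promoters overlap those of sup-39 and T27E4.12. The pair was in 9 of 12 U1, 3 of 5 U4, 6 of 11 U5 and 9 of 22 U6 promoters, and in 0 of 19 U2 and 0 of 6 K09B11 promoters. In all 9 U6 pairs the first letters were 11 bp apart, the distance also found in 8 of 9 U1 and all 6 U5 pairs. AACC of the pair started 66 or 67 bp upstream in U6 and 55 or 56 bp upstream in U1 promoters.

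TATA starting 35 to 15 bp upstream was in 17 of 22 U6 promoters and 2 of the 47 others, against 12.7% of protein-coding genes. Its first copy started 30 or 31 bp upstream in 16 of the 17. All 17 U6 genes with TATA had an IDR summit within 300 bp, although that of K09B11.15 lay 226 bp away and nearest to K09B11.16. F54C8.8 was the only one of 18 with a summit and no TATA. None of the 4 U6 genes without a summit had it. TTTT within 20 bp after the annotated 3′ end was found at 17 of 22 U6 genes and 3 of the 47 others, against 28.3% of other non-coding genes. Within 10 bp, or for TTTTT, it was found at 6 of 22 U6 genes and 0 of the 47 others. The SL RNA and SmY genes, which carry the same biotype, had TATA in 7.50% and TGTC at 60 to 40 bp in 62.5% of 40 promoters. An IDR summit was at 28 of them (70.0%), with a median signal of 3095, 39 bp upstream.

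Summits followed these letters loosely. At genes of the 5 types with TGTC, the pooled summit lay a median of 15 bp downstream of its first letter. By type it was 24 bp downstream at U6 and 8 bp at U1 genes. At U6 genes with TATA the summit was a median of 8 bp from the first TATA letter. Within a type, genes with TGTC had the higher median signal, although at U1, U4 and U6 only 1 gene with a summit lacked it. The medians were 3026 at the 6 U5 genes with it and 2082 at the 5 without, 4502 at 9 U1 genes against 1993 at 1, 2084 at 4 U4 genes against 861 at 1, and 634 at 17 U6 genes against 293 at 1. All 17 U2 genes with a summit had it. Over the typed genes together, whose levels differ by type, the median was 1500 at the 53 with it and 1749 at the 8 without. F38E11.10, with the highest U5 signal, is one of those without, as its printed promoter shows.

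**Figure D5:**
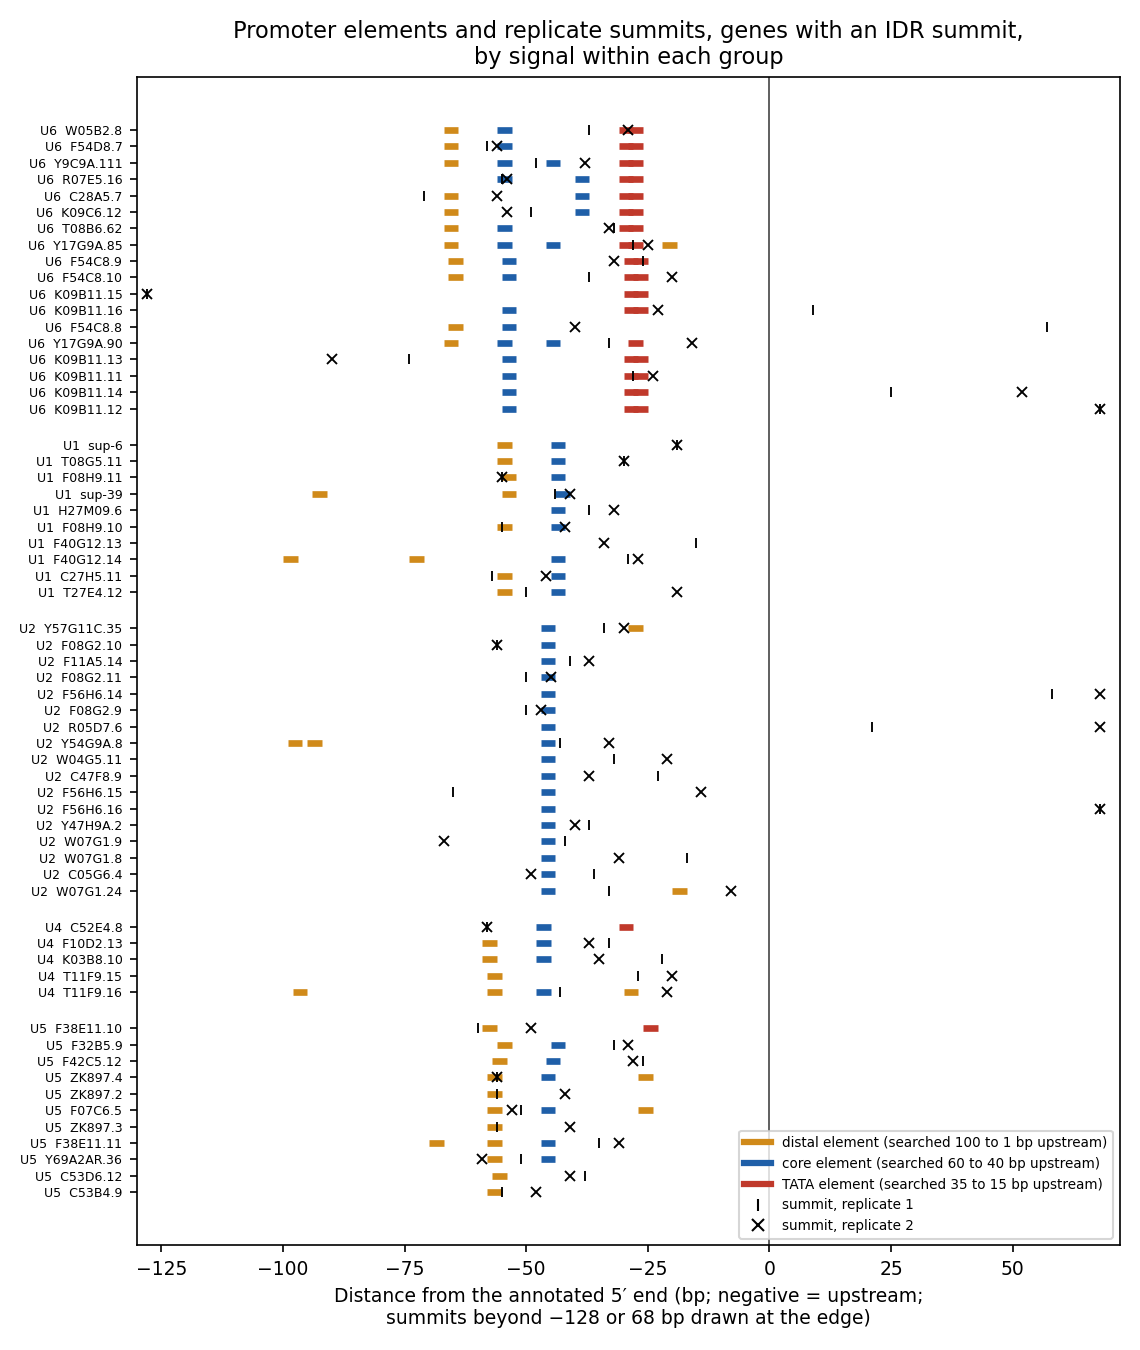
Promoters of the 61 typed genes with an IDR summit, aligned at the annotated 5′ end (x in bp, negative upstream), by type and then by signal, with the distal element (letters AACC), the core element (TGTC), TATA and the summit of each replicate. U6 has the core at 55 or 56 bp upstream in 15 rows and TATA in 17 of 18, U2 the core at 47 bp in every row, and most summits lie between 65 and 15 bp upstream.

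Members with an IDR summit were found on all 6 nuclear chromosomes, inside other genes and outside them. Chromosome III held 7 members, all U6 and all with an IDR summit, chromosome IV 22 of 29, V 15 of 25, II 11 of 13, I 9 of 12 and X 1 of 3. As 10 of the 11 U5 genes lie on IV and all 5 U4 genes on V, type and chromosome cannot be told apart for these 2 types. Of 50 snRNA genes within the span of a protein-coding gene, 36 had a summit, and of 39 outside, 29 had one. Of the 30 on the same strand as the coding gene, 26 had a summit, and the rest of the 36 were on the opposite strand. The opposite strand also held the 6 inside cyp-34A genes, which lack the letters of any type and of which 0 had a summit.

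Of the proteins that bind or process snRNAs, the Integrator subunits had most of the sites. Of 32 genes found from 4 lists, 7 had an IDR summit within 300 bp of the 5′ end (21.9%), against 6.36% of protein-coding genes. Integrator, which cuts the 3′ end of polymerase II snRNAs, gave 5 of 11 genes, led by ints-4 (495) and ints-5 (180), both with their own 5′ end nearest to the summit. The Sm core proteins gave 1 of 7, snr-3 (144). The LSm proteins, which include those that bind the end of U6, gave 1 of 8, lsm-7. Its pooled signal was 179, but its rank was 15677 in replicate 1 and 2542 in replicate 2. At snr-3 and lsm-7 the nearest 5′ end belonged to other genes, rsp-5 and dnc-1. None of 6 further snRNP protein genes had a summit.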

How the data were processed

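Per the labels, SNPC-4-GFP was immunoprecipitated from 2 biological replicates, 1 group with no condition to compare. The ce11 narrowPeak lists, deposited with no header, hold 30000 candidates for each replicate, 30000 for both pooled, and the 4675 pooled peaks that passed IDR. Per the text listing of the deposit they derive from replicate and control alignments. The sources used here do not give the caller, aligner, read length or versions, and read depth is unknown. The deposited signal value was ranked only within a list, and the −log10 q-value the authors gave was constant in the IDR list and was not used. Intervals are exact binomial at 95% and take genes as independent, although some share a summit or a sequence.

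A summit is start plus offset. In the IDR list 3 summits fell outside their region. The nearest within 300 bp of the gene's 5′ end (Ensembl release 115, RefSeq symbols for all 89) was taken from the IDR list, else from the pooled candidates, and separately from each replicate. Motifs were counted in 100 bp upstream, and uniqueness as the percent of 50-base words found once on both strands within 150 bp. Shares at snRNA genes stand beside those of other genes with no test, since genes are not replicates. The scripts were tested on simulated lists. Members, lists and letters were chosen with earlier results of these data known. The genes named were all U6 genes, sup-6, sup-39, the 3 highest and 2 lowest of each other group, members without a summit or sharing one, and the 2 highest of each protein list. Alternatives were windows of 150 and 500 bp, single replicates, stricter peaks, the highest summit, other motif windows and 36-base words. Left out were the ce10 lists. Python 3.11.15, numpy 2.4.6, scipy 1.17.1, edlib 1.3.9 and matplotlib 3.10.9 were used.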

Additional observations from a re-analysis of the deposited data

How the results depend on the processing

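Of 62 alternatives over 19 results, 40 stayed within the margins and 22 moved. The margin was a fixed fold limit for counts. For medians of signal, rank and distance it was the spread between the medians of the 2 replicates. Uniqueness had no margin, so any change in it counted as moved. The reversed letters, a comparison rather than a setting, were among the 62. With a 150 bp window the median signal was 1525 for all members and 634 for U6. Counting each distinct summit once also gave 1525. Taking the highest summit put the median 38.0 bp upstream. Leaving out the K09B11 genes, chosen after seeing the data, raised U6 to 2825, above the U1, U2, U4 and U5 genes. Single replicates were here cut at their 4675 strongest regions, which kept 16 U6 genes in replicate 1. The U6 median rank of 732 given above for replicate 1 covers all 18 with an IDR summit. After the cut, median ranks were 219 to 222 for all members, 508 to 562 for U6 and 184 to 185 for the others. Medians were then 36 to 39.5 bp upstream for all, 32.5 to 37.0 bp for U6 and 37.0 to 39.5 bp for the others, and the genes with a summit 62 to 64, 16 to 18 and 42. The reversed letters GGCTGT were in 6 promoters. TTTT within 10 bp, or TTTTT, left 6 U6 genes in each case and 0 of the others in each case. TATAA was in 0 of the other promoters and TATA within 50 bp in 7. Words of 36 bases lowered the median uniqueness to 63.0%, and 500 bp raised the protein genes from 7 to 14. The share of all protein-coding genes was not counted at 500 bp, so the 14 has no comparison. The causes of these moves were not tested beyond the changed letters and windows. Depth is unknown, so a gene without a candidate is not shown to lack binding. Only 2 replicates and no control list were used, and the annotated 5′ ends set every distance. No paired analysis was possible because the labels give 1 group.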
